A study of Mus musculus with 3 samples.

Results

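Preleptotene-like cells, the germ cells that stand between the last spermatogonial divisions and meiotic prophase, were taken from single-cell libraries of adult mouse testis by a rule on the counts of 10 genes. A barcode was kept with at least 3000 unique molecular identifiers (UMIs, which count each captured messenger RNA molecule once), at least 1000 genes, at most 10% mitochondrial UMIs and under 2% UMIs of the protamine and transition protein genes Prm1, Prm2, Tnp1 and Tnp2. Of the kept barcodes, preleptotene-like cells held at least 1 UMI of Stra8, at least 2 UMIs over Prss50, Meiob, Sycp1 and Tex15, and no more UMIs over the spermatogonial genes Kit, Dmrtb1, Crabp1, Uchl1 and Dmrt1 than over those 4 meiotic genes. The rule found 746 cells among 7279 kept and 33038 deposited barcodes. They numbered 210 in wildtype replicate 1, 265 in wildtype replicate 2 and 271 in the knockout library.

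The series set testes with a conditional knockout of Tex10, a nuclear protein gene linked to ribosome assembly and to stem cell pluripotency, against wildtype testes. All 3 libraries came from adult C57BL/6N mice and were made with the 10x Chromium 3′ kit from collagenase-digested testis. Each wildtype library held cells of 1 mouse, and the knockout library pooled cells of 2 conditional knockout mice. The labels do not give the Cre driver or the deleted exons. With 1 knockout library no knockout value has a replicate check and no p-value is given. Below, unless other labels are given, a set of 3 values runs in the order wildtype replicate 1, wildtype replicate 2, knockout library.

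Preleptotene spermatocytes carry out the last round of DNA replication before the meiotic divisions. Retinoic acid induces STRA8, which acts with its partner MEIOSIN as a transcription factor pair that switches on meiotic genes while replication goes on. The products of those genes then build the chromosome axes, make programmed DNA breaks and repair them by recombination in leptotene and later stages.

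In total the libraries held 93418341, 96001773 and 147783171 UMIs. The wildtype libraries differed by more than sampling noise over 10947 genes in these cells (chi-square of 2.48 per degree of freedom) and were kept apart as 2 samples. The cells of the knockout library were deeper, with a median of 8261 UMIs and 3569 genes per cell against 6274 and 6024 UMIs and 2954 and 2874 genes in the wildtype libraries. Summed over the preleptotene-like cells, 1656072, 2132826 and 3148203 UMIs stood behind each level in CPM, the UMIs of a gene scaled to a common library total. Pairs of libraries shared 28 barcodes (wildtype replicates 1 and 2), 30 (wildtype replicate 1 and knockout) and 27 (wildtype replicate 2 and knockout). Of these, 1, 2 and 1 were a preleptotene-like cell in either library of the pair and 0 in both.

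Many cells lay at the rule's minimum for Stra8: 31.9%, 29.8% and 27.3% of them held exactly 1 UMI of it. The median cell held 3, 4 and 4 UMIs of Stra8, 20, 19 and 30 UMIs of the 4 meiotic genes and 2, 2 and 2 UMIs of the 5 spermatogonial genes. No cell held fewer than 4 UMIs of the meiotic genes, so the minimum of 2 removed none. At the edge towards spermatogonia, 20 cells had a meiotic sum 0 to 2 UMIs above the spermatogonial sum, with 238 CPM of Esco2, 277 CPM of Zcwpw1 and 34.7 CPM of Prdm9. The 8 barcodes just outside, 1 to 2 UMIs short, had 223 CPM of Esco2, 186 CPM of Zcwpw1 and 24.8 CPM of Prdm9. At the depth edge, 14 cells within 500 UMIs above the minimum had 687 CPM of Esco2 and 909 CPM of Zcwpw1, and 14 barcodes within 500 UMIs below it that met the gene rule had 540 CPM and 848 CPM.

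Markers that the rule did not read were detected in most of the cells. Esco2, whose product acetylates cohesin during S phase, had a UMI in 87.6%, 85.7% and 87.8% of cells. Zcwpw1, which encodes a reader of the histone marks left by PRDM9, had one in 91.4%, 89.1% and 97.4%. Free RNA was gauged in somatic-like barcodes, which held at least 10 UMIs of somatic cell genes and were not preleptotene-like (184, 154 and 263 barcodes, with median depths of 6390, 5721 and 8011 UMIs). Of these, 2.72%, 5.19% and 6.08% held Esco2 and 6.52%, 7.79% and 11.4% held Zcwpw1. Because the rule asks for Stra8, that gene was gauged in all somatic-like barcodes, preleptotene-like ones included, and 3 of 185, 2 of 156 and 8 of 269 held it (1.62%, 1.28% and 2.97%). Of the rule's own genes, Sycp1 was found in 99.5%, 98.9% and 99.3% of preleptotene-like cells and Meiob in 32.9%, 30.9% and 43.5%. These shares set the cells apart from somatic-like barcodes, and detection in neighbouring germ cells is not given here. Of the rule's meiotic genes, Meiob and Sycp1 were lower than in the Stra8-negative early spermatocytes described below (log2 ratios of -1.79 and -1.07). Prss50 and Tex15 were higher (0.82 and 1.92). The name preleptotene-like is used as a name for cells chosen by this rule.

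A minority of the cells also carried RNA of later stages. The late spermatocyte genes Piwil1, Pou5f2, Ccna1 and Ldhc together exceeded the 4 meiotic genes in 18, 26 and 29 of the cells, and 1, 2 and 6 cells held at least 10 UMIs of genes of Sertoli, Leydig, myoid or macrophage cells. Without these cells, 192, 238 and 238 remained and 14.3%, 16.7% and 22.0% of the UMIs were left out. The same removal was made in the neighbouring classes described below. It changed several counts, which are given beside the lists.

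Preleptotene-like cells made up the same share of the kept barcodes in all 3 libraries, within counting error. The share was 10.2% (exact 95% binomial interval 8.92 to 11.6), 10.2% (9.07 to 11.4) and 10.3% (9.19 to 11.6). The wildtype mean was 10.2% ± 0.00978 (SD, n = 2), and the knockout library lay 0.131 percentage points above it. Of the germ cell barcodes alone, they were 11.1%, 10.8% and 11.3%. These intervals cover counting error only.

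That likeness rests on the depth minimum. With at least 6000 UMIs the shares were 7.13% (119 of 1669), 6.56% (134 of 2042) and 12.1% (253 of 2085), beside the greater depth of the knockout cells. With every barcode thinned to 3000 UMIs before the gene rule, they were 8.06%, 8.13% and 7.62%. Below the minimum, 3 of 190, 24 of 599 and 2 of 262 barcodes met the gene rule.

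The neighbouring stages were set beside them as a description. Stra8-positive spermatogonia were kept barcodes with Stra8 in which the spermatogonial sum was at least 2 and exceeded the meiotic sum (65, 77 and 83 barcodes). Stra8-negative early spermatocytes had no Stra8 UMI, met the meiotic rule, and held more UMIs of the 4 meiotic genes than of the 4 late spermatocyte genes (343, 347 and 406 barcodes). Because the classes were cut from the same counts, the differences below describe the classes and test nothing. A gene is called higher or lower when its CPM differed at least 2-fold in the same direction in each of the 3 libraries, on the log2(CPM + 1) scale, with at least 20 CPM in 1 library. The genes of the rule were left out.

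Against spermatogonia, 771 of 8765 genes were higher in preleptotene-like cells (8.8%) and 576 were lower (6.57%). Against early spermatocytes, 466 of 8040 genes were higher (5.8%) and 246 were lower (3.06%). Scaling by the median of gene ratios moved the median of all genes in the latter comparison by -0.18 on the log2 scale and its calls to 282 higher and 419 lower, so the share of higher calls went from 65.4% to 40.2%. Counts against early spermatocytes therefore depend on the scaling. Against spermatogonia the same scaling gave 837 higher and 518 lower. A set of 164 of 7830 genes (2.09%) was higher than in both neighbours.

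Among the genes that open meiosis, Gm4969 was higher than in both neighbours. Of 15 tested meiotic entry regulators, 6 were higher than in spermatogonia and 1 lower, with a median log2 ratio of 0.90 against 0.02 over all genes. Without the cells that carried late or somatic RNA, 7 were higher and 2 lower, with a median of 0.57. Gm4969, which encodes MEIOSIN (chr7:19099046-19118368, minus strand), stood at 51.9 CPM (exact 95% Poisson interval 41.5 to 64.1), 40.3 CPM (32.3 to 49.8) and 41.6 CPM (34.8 to 49.4). In spermatogonia it stood at 1.51, 3.67 and 0.486 CPM, and in early spermatocytes at 7.84, 4.37 and 7.83 CPM. Every preleptotene-like value was above every value of both neighbours. None of the somatic-like barcodes held a UMI of Gm4969, which allows shares of up to 1.63%, 1.95% and 1.14%, whereas 31.4%, 25.7% and 35.1% of preleptotene-like cells did.

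Meioc and Ythdc2, whose products bind RNA together and hold germ cells in meiotic prophase, differed from that pattern. Meioc stood at 499, 446 and 496 CPM against 52.8, 48.4 and 56.4 CPM in spermatogonia, and it was no higher than the 454, 436 and 454 CPM of early spermatocytes by the rule. Ythdc2 stood at 208, 172 and 225 CPM against 46.0, 48.4 and 38.9 CPM in spermatogonia and 206, 212 and 238 CPM in early spermatocytes. The cyclin gene Ccnb3, the F-box gene Fbxo47 and the histone methyltransferase gene Setdb1 were also higher than in spermatogonia. Sohlh1, a transcription factor gene of differentiating spermatogonia, was lower (36.2, 46.4 and 40.7 CPM against 102, 127 and 114 CPM).

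Rec8, a meiotic cohesin gene, was the other of the 2 regulators of 14 that passed against early spermatocytes. Its levels were 35.0, 40.3 and 27.0 CPM here, 17.3, 9.53 and 16.0 CPM in spermatogonia and 6.33, 8.42 and 5.74 CPM in early spermatocytes. The difference from spermatogonia did not pass the rule, but it did without the cells that carried late or somatic RNA. Dazl, an RNA-binding protein gene that licenses germ cells for meiosis, stood at 1353, 1271 and 1158 CPM, and Rbm46, another RNA-binding protein gene, at 300.1, 298 and 309 CPM, and both passed against neither neighbour. Of the genes that make, bind or receive retinoic acid, 0 of 6 passed against spermatogonia and 0 of 5 against early spermatocytes. After the removal of cells with late or somatic RNA, 2 of 6 were lower than in spermatogonia and 2 of 4 higher than in early spermatocytes, among the latter Rbp4 (smallest log2 ratio of the 3 libraries 1.06). Rbp4, a retinol carrier gene, stood at 156, 148 and 140 CPM against 84.5, 62.3 and 77.3 CPM and 77.4, 63.6 and 63.4 CPM.

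The promoters of the induced pair are shown because retinoic acid and the STRA8-MEIOSIN pair are known to act on such sequences. The 250 bases before each start come from RefSeq on GRCm38.p6, 5′ to 3′ on the gene's strand. Capitals mark, on either strand, CCTCAG (core of the element reported for STRA8 and MEIOSIN), AGGTCA (the hexamer of retinoic acid receptor sites), CACGTG (an E-box) and GGCGGGA (an E2F-type site).
Stra8 promoter (chr6:34920698-34920947, plus strand): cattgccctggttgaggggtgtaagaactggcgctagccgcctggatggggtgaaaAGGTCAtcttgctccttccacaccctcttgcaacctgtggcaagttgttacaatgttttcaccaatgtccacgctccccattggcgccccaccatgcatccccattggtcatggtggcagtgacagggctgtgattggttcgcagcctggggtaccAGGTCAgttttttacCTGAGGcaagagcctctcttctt
Gm4969 promoter (chr7:19118345-19118594, minus strand): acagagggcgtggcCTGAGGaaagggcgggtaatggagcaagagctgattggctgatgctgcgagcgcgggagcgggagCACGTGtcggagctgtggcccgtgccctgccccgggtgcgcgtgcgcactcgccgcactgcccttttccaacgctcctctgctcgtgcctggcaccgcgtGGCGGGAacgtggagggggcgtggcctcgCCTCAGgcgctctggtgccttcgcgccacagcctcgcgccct
In Stra8, AGGTCA begins 194 and 38 bases before the start, and CCTCAG lies on the opposite strand, 23 bases before it. In Gm4969, CCTCAG begins 42 bases before the start and lies again on the opposite strand at 236, with CACGTG at 171 and GGCGGGA at 71. These are matches of letters and no measure of binding.

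Part of the genes of DNA replication were higher than in early spermatocytes, and few differed from spermatogonia, which also divide. Of 33 tested replication and S phase genes, 10 were higher than in early spermatocytes and 0 were lower, with a median log2 ratio of 0.77 against 0.10 over all genes. They were Mcm5, Mcm6 and Orc1 of the origin-loading machinery, Rrm2, Prim1, Ung and Clspn of nucleotide supply, priming, uracil repair and fork protection, the regulators E2f1 and Ccne2, and Esco2. With median-of-ratios scaling 5 of the 33 passed, and without the cells that carried late or somatic RNA 11. Against spermatogonia, 4 of 35 were higher and 1 lower, with a median of 0.13.

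Those 4 genes, Esco2, Rrm2, Prim1 and Ccne2, were the replication genes higher than in both neighbours. Esco2 (chr14:65819038-65833994, minus strand) stood at 498 CPM (464 to 533), 442 CPM (414 to 471) and 432 CPM (410 to 456), against 158, 147 and 157 CPM in spermatogonia and 151, 149 and 126 CPM in early spermatocytes. Rrm2, a ribonucleotide reductase subunit gene, stood at 95.4, 98.0 and 80.4 CPM against 40.0, 24.2 and 33.1 CPM and 24.8, 24.6 and 13.8 CPM. Prim1, a DNA primase subunit gene, stood at 107, 98.5 and 85.4 CPM against 39.2, 33.7 and 27.7 CPM and 30.6, 24.6 and 24.9 CPM. Cdt1, which licenses origins before S phase, was the 1 gene lower than in spermatogonia, at 10.3, 10.3 and 10.2 CPM against 44.5, 44.0 and 37.4 CPM. Once cells with late or somatic RNA were left out, 3 replication genes were higher and 3 lower than in spermatogonia, with a list median of -0.09. Hells, a chromatin remodeller gene and the most abundant of the list, stood at 709, 664 and 738 CPM against 542, 518 and 557 CPM in spermatogonia and 326, 336 and 302 CPM in early spermatocytes, and passed against neither. Without the cells that carried late or somatic RNA, Hells passed against early spermatocytes (smallest log2 ratio 1.12). Slbp, which encodes the histone messenger-binding protein, stood at 328, 361 and 334 CPM and Dut, which keeps uracil out of DNA, at 234, 242 and 206 CPM, and neither passed.

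Per cell, the replication list took a median of 0.464%, 0.474% and 0.515% of the UMIs in preleptotene-like cells, 0.469%, 0.412% and 0.457% in spermatogonia and 0.253%, 0.235% and 0.235% in early spermatocytes. Genes of mitosis had list medians of -0.08 against spermatogonia and 0.07 against early spermatocytes. Of 20, Top2a, Bub1, Hmmr and Kif23 were higher than in spermatogonia and Ccnb1 and Aurkb lower. After the removal of cells with late or somatic RNA, 2 were higher and 3 lower, with a median of -0.14. Cenpf, a kinetochore gene, stood at 828, 842 and 788 CPM and the proliferation marker gene Mki67 at 236, 289 and 271 CPM, and neither passed. Cdk1, the kinase of entry into division, was lower than in early spermatocytes, at 51.9, 91.4 and 73.7 CPM against 209, 207 and 200 CPM, and so was Cdc20, while 1 of the 20 was higher. Median-of-ratios scaling gave 1 higher and 3 lower in that comparison, and so did the removal of those cells.

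Genes of the list on meiotic DNA breaks, which also holds the mark reader gene Zcwpw1, were in part higher than in both neighbours. Of 11 genes, 8 were higher than in spermatogonia and 0 lower, and 7 were higher than in early spermatocytes and 1 lower. The medians were 2.06 and 1.82 on the log2 scale, and 5 of the 11 were higher than in both: Prdm9, Zcwpw1, Mei1, Ccdc36 and Atm. Median-of-ratios scaling kept 6 of the 7 against early spermatocytes, without Zcwpw1. Atm did not pass against spermatogonia once cells with late or somatic RNA were left out.

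Prdm9 encodes the methyltransferase whose zinc fingers choose the sites of the breaks (chr17:15543079-15564354, minus strand). It stood at 145 CPM (127 to 164), 120 CPM (106 to 136) and 128 CPM (116 to 141), against 2.26, 6.60 and 5.35 CPM in spermatogonia and 22.3, 26.8 and 19.0 CPM in early spermatocytes. A UMI of Prdm9 was present in 61.0%, 55.1% and 67.2% of the cells, and in 1.63%, 1.95% and 0.760% of somatic-like barcodes. Zcwpw1 (chr5:137787798-137822621, plus strand) stood at 651 CPM (613 to 691), 473 CPM (444 to 503) and 629 CPM (602 to 658). Its neighbours held 133, 125 and 159 CPM in spermatogonia and 226, 219 and 230 CPM in early spermatocytes, so the classes did not overlap, but wildtype replicate 2 lay below the other libraries.

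Mei1, needed for breaks to form, stood at 55.6, 42.2 and 39.4 CPM against 6.03, 9.53 and 8.26 CPM in spermatogonia and 9.62, 4.37 and 5.05 CPM in early spermatocytes. Ccdc36, which encodes the axis-bound break factor IHO1, stood at 79.1, 50.6 and 60.4 CPM against 7.54, 15.4 and 9.72 CPM and 16.7, 17.8 and 16.4 CPM. Its partners Mei4 (33.2, 14.5 and 25.7 CPM) and Rec114 (44.1, 44.5 and 41.3 CPM) were higher than in early spermatocytes only. Ankrd31, which encodes a partner of REC114, stood at 249, 192 and 232 CPM and was higher than in spermatogonia only. Spo11, the gene of the enzyme that cuts the DNA, did not follow. It stood at 45.3, 43.6 and 43.2 CPM, between the 22.6, 27.1 and 30.6 CPM of spermatogonia and the 62.8, 60.5 and 67.9 CPM of early spermatocytes, and passed against neither.

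The promoters of Prdm9 and of Zcwpw1, the gene of the reader of PRDM9 marks, are shown for the same motifs (RefSeq, GRCm38.p6, 250 bases before the start, capitals as above). They were chosen because they hold CCTCAG.
Prdm9 promoter (chr17:15564355-15564604, minus strand): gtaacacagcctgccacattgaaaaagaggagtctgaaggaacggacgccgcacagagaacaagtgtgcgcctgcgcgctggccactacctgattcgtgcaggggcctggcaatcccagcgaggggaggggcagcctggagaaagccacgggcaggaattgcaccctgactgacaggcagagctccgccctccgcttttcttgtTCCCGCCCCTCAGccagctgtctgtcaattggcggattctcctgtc
Zcwpw1 promoter (chr5:137787081-137787330, plus strand): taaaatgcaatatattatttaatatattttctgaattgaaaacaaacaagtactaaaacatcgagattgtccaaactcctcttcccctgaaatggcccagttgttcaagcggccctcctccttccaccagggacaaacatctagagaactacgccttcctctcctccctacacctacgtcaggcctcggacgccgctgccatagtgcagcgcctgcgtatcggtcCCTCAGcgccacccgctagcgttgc
Each holds CCTCAG on its own strand, 39 bases before the start of the promoter shown in Prdm9 and 25 in Zcwpw1. In Prdm9 it directly follows GGCGGGA on the opposite strand, at 46 bases. RefSeq gives each gene another promoter, chr17:15563282-15563581 for Prdm9 and chr5:137787552-137787851 for Zcwpw1, and both held 0 matches of CCTCAG. The gene start given above for Zcwpw1 lies within this other promoter and not within the one shown. For Prdm9, the promoter shown is the one at the gene start given above. The promoters of Mei1, Rad51ap2, Meioc, Rad21l, Tex101, Rec8 and Fgf11 also held 0 matches of CCTCAG.

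Across all genes, CCTCAG on either strand was found in 26.8% of the 32851 RefSeq promoters of 300 bases (250 before to 50 after the start) and in 28.5% of those of genes tested against spermatogonia. It was in 36.5% of promoters of genes higher than in spermatogonia (295 of 808) and in 26.4% of those lower. For genes higher than in early spermatocytes the share was 37.9%, for those lower 26.9%, and for genes higher than in both neighbours 39.0%. In 4 lists together (entry, axis, breaks, recombination), of which 62 of 76 genes had a promoter, 41.1% held it (30 of 73). In the same promoters CACGTG was found in 24.7%, GGCGGGA in 32.9% and AGGTCA in 16.4%. AGGTCA was in 16.3% of all promoters, 12.7% of those of tested genes and 10.3% of those of genes higher than in spermatogonia. GGCGGGA was in 21.1% of those of tested genes and 24.8% of those higher, and CACGTG in 11.1% and 9.78%. In the set lower than in spermatogonia GGCGGGA was in 15.2%. Relative to tested genes, CACGTG and GGCGGGA thus exceeded the background in the 4 lists by a larger ratio than CCTCAG did.

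Most of the tested chromosome axis genes were higher than in spermatogonia, and few differed from early spermatocytes by the rule. Of 18 tested, 15 were higher than in spermatogonia and 0 lower, with a median log2 ratio of 2.22. Against early spermatocytes, 2 of 19 were higher and 1 lower, with a median of 0.07. Median-of-ratios scaling gave 2 higher and 2 lower, with Sycp3 the added gene, and leaving out cells with late or somatic RNA also gave 2 and 2. Sycp3, an axis protein gene, stood at 1594 CPM (1534 to 1656), 1239 CPM (1192 to 1287) and 1656 CPM (1612 to 1702), against 284, 295 and 345 CPM in spermatogonia and 2992, 2797 and 3347 CPM in early spermatocytes. Hormad1, which marks unsynapsed axes and recruits break factors, was lower than in early spermatocytes by the rule, at 480, 386 and 469 CPM against 1185, 1085 and 1158 CPM. Sycp2 lay below the early spermatocyte level too (627, 489 and 668 CPM against 907, 929 and 1051 CPM), without passing.

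Among the cohesin genes, Rad21l, which encodes a meiosis-specific kleisin, stood at 42.3, 40.8 and 52.4 CPM, against 2.26, 1.47 and 0.486 CPM in spermatogonia and 7.84, 7.49 and 8.88 CPM in early spermatocytes. With Rec8 it was 1 of the 2 axis genes of 19 higher than in early spermatocytes. Smc1b stood at 1543, 1334 and 1494 CPM against 458, 508 and 494 CPM and 836, 842 and 860 CPM, and Stag3 at 331, 280 and 330 CPM against 79.2, 93.1 and 86.5 CPM and 248, 213 and 218 CPM. These 2 passed against spermatogonia and, although above every early spermatocyte value, not against early spermatocytes. The same held for Syce2, a central element gene of the synaptonemal complex, at 737, 629 and 616 CPM against 311, 287 and 267 CPM and 377, 351 and 313 CPM. Once cells with late or somatic RNA were left out, Syce2 did not pass against spermatogonia either (smallest log2 ratio 0.83).

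**Figure D1:**
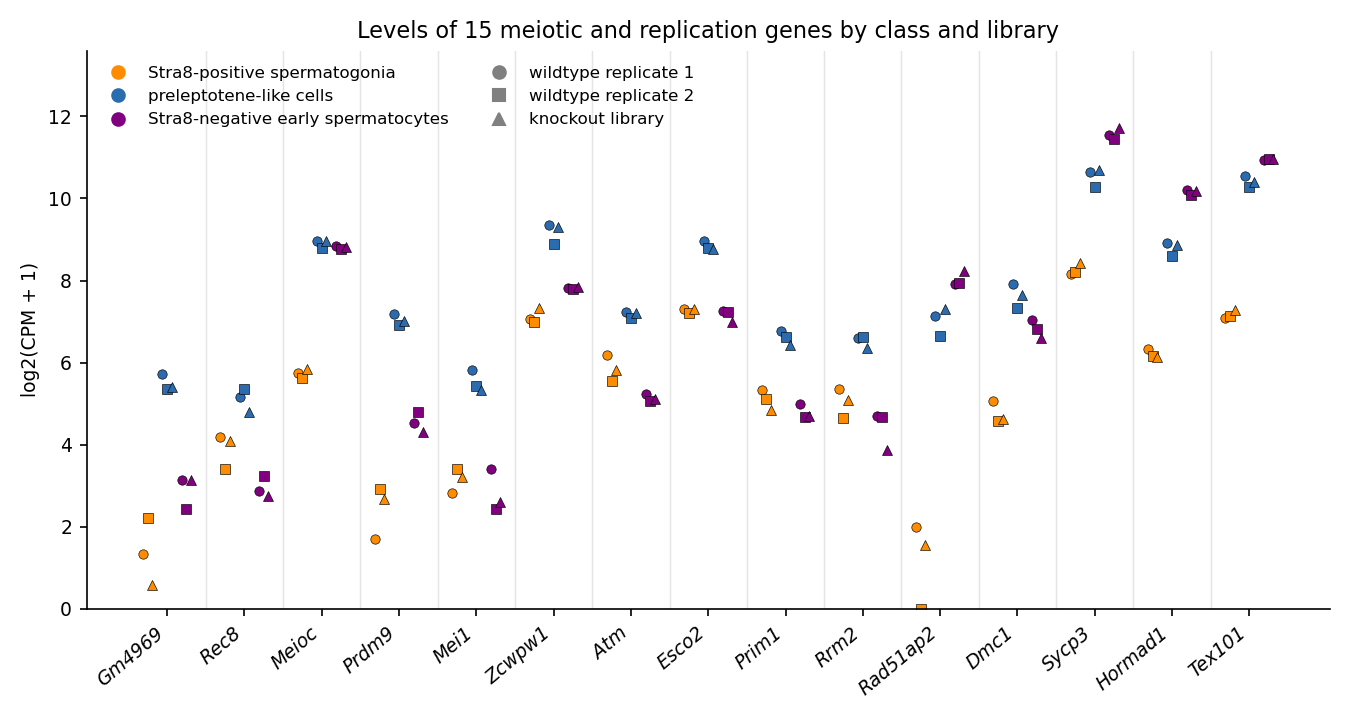
Levels of 15 genes on a log2(CPM + 1) axis in Stra8-positive spermatogonia, preleptotene-like cells and Stra8-negative early spermatocytes, with 1 symbol per library and class and no averaging. Gm4969, Prdm9, Mei1, Esco2, Prim1 and Rrm2 are highest in preleptotene-like cells in all 3 libraries, whereas Sycp3 and Hormad1 are highest in early spermatocytes.

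Part of the recombination genes were higher than in spermatogonia, 9 of 23 tested, and 0 were lower. Against early spermatocytes, 1 of 25 was higher and 3 were lower, and median-of-ratios scaling gave 0 and 3. Without the cells that carried late or somatic RNA, 8 of 23 were higher than in spermatogonia, and 2 of 25 were higher and 4 lower than in early spermatocytes. Dmc1, the meiotic strand-exchange gene, stood at 242, 160 and 200 CPM against 32.4, 22.7 and 23.8 CPM in spermatogonia, and above the 130, 112 and 96.8 CPM of early spermatocytes without passing. Mnd1, Msh4 and Mcmdc2 were lower than in early spermatocytes, as with Mnd1 at 30.8, 40.3 and 42.2 CPM against 148, 124 and 147 CPM. Brca2, which loads the recombinases, stood at 378, 316 and 311 CPM against 133, 136 and 119 CPM in spermatogonia, but did not pass without those cells (smallest log2 ratio 0.96). Psmc3ip, a DMC1 cofactor gene, stood at 206, 203 and 249.7 CPM and passed against neither neighbour. Rad51ap2, a gene of meiotic germ cells, stood at 139, 99.4 and 158 CPM against 3.02, 0 and 1.94 CPM in spermatogonia and 240, 246 and 301 CPM in early spermatocytes.

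The genome defence list, which holds genes of transposon control and also Tex101 and Taf7l, differed less from spermatogonia. Of 17 tested genes of the list, Tex101 was higher than in spermatogonia. Tdrd5, Tdrd9, Piwil2 and Mov10l1 were lower than in early spermatocytes, where Taf7l was the 1 higher gene. Median-of-ratios scaling gave 4 higher than in spermatogonia, and 1 higher and 5 lower than in early spermatocytes. After the removal of cells with late or somatic RNA, 2 were higher than in spermatogonia, and 1 was higher and 6 lower than in early spermatocytes. Tex101, a surface glycoprotein gene of meiotic germ cells, stood at 1490, 1247 and 1347 CPM against 135, 141 and 156 CPM in spermatogonia and 1952, 1978 and 1990 CPM in early spermatocytes. Piwil2 stood at 74.9, 93.8 and 92.1 CPM against 297, 265 and 282 CPM in early spermatocytes. The germ cell helicase gene Ddx4 (339, 354 and 339 CPM) and Mael (339, 337 and 344 CPM) passed against neither neighbour, but Ddx4 was lower than in early spermatocytes without those cells (smallest log2 ratio -1.02) and with median-of-ratios scaling.

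Several spermatogonial genes outside the rule were lower. Of 7 tested genes of undifferentiated spermatogonia, 4 were lower than in Stra8-positive spermatogonia: Zbtb16, Sall4, Lin28a and Egr4. Once cells with late or somatic RNA were left out, 5 of 6 tested were lower, with a median of -2.92. Sall4, a stem cell transcription factor gene, stood at 6.64, 5.63 and 7.31 CPM against 61.1, 52.8 and 47.1 CPM. Of 9 genes of differentiating spermatogonia, Sohlh1, Ccnd2, Dnmt3b and Sall4 were lower, and Ccnd2, a cyclin D gene, stood at 7.25, 3.28 and 6.35 CPM against 77.7, 61.6 and 39.9 CPM. Rhox13 and Elavl2 of that list went the other way and were higher than in both neighbours. Rhox13, an X-linked homeobox gene, stood at 210, 194 and 177 CPM against 57.3, 46.9 and 46.2 CPM in spermatogonia and 64.3, 68.3 and 60.4 CPM in early spermatocytes. Elavl2, an RNA-binding protein gene, stood at 176, 204 and 138 CPM against 67.9, 61.6 and 43.7 CPM and 60.2, 56.2 and 38.5 CPM, and it did not pass against spermatogonia without the cells that carried late or somatic RNA.

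Genes of later stages showed how the classes differ in late-type RNA. Of 19 genes of pachytene and diplotene spermatocytes, 7 were lower in preleptotene-like cells than in spermatogonia, among them Ldhc, Ccna1 and Pou5f2. Without cells that carried late or somatic RNA, which held 31.1%, 35.5% and 38.1% of the UMIs of the spermatogonia but 2.63%, 2.71% and 1.53% of those of early spermatocytes, 0 of 18 were lower and 1 was higher, where Ldhc, Ccna1 and Pou5f2 belong to the late genes that chose the cells removed. Without them, 813 genes were higher and 735 lower than in spermatogonia, and 598 higher and 412 lower than in early spermatocytes. The break list again had 8 and 7 higher genes, the axis list had 17 of 18 higher than in spermatogonia, and 160 genes were higher than in both neighbours.

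The genes that led the comparisons were mostly outside the lists. Against spermatogonia the 10 with the largest smallest ratio were Rad51ap2, Sdk1, Pbx3, Primpol, Prdm9, Stxbp5l, Gal3st1, Rad21l, Tslrn1 and Top2b. Pbx3, a homeodomain transcription factor gene, stood at 237, 155 and 196 CPM against 6.79, 5.86 and 11.2 CPM in spermatogonia and 51.6, 48.7 and 47.7 CPM in early spermatocytes. Primpol, which encodes a primase-polymerase that restarts stalled forks, stood at 75.5, 54.4 and 74.3 CPM against 3.77, 2.20 and 2.43 CPM in spermatogonia. Top2b, a topoisomerase gene, stood at 187, 152 and 211 CPM against 14.3, 7.33 and 12.2 CPM. Gal3st1, which encodes the sulfotransferase of the germ cell lipid seminolipid, stood at 65.2, 45.5 and 48.9 CPM against 1.51, 0 and 2.43 CPM. Tslrn1, an X-linked long noncoding RNA, stood at 184, 162 and 152 CPM against 8.29, 11.0 and 11.2 CPM. The 5 that led the lower genes were Lhx8, Gm28578, Trim71, Rhox10 and Dlk1, of which Trim71, a stem cell RNA-binding protein gene, stood at 7.85, 7.50 and 7.31 CPM against 70.9, 91.6 and 82.6 CPM.

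Against early spermatocytes the leading higher genes were Fgf11, Rhd, Figla, Greb1l, Nacad, Nudt17, Mei1, Zfp667, Rapgef5 and Rapgefl1. Fgf11, a gene of the intracellular fibroblast growth factor group (chr11:69796068-69801857, minus strand), stood at 26.0 CPM (18.8 to 35.0), 21.1 CPM (15.4 to 28.2) and 25.4 CPM (20.1 to 31.6). Both neighbours held less, with 0, 1.47 and 0.972 CPM in spermatogonia and 1.27, 1.25 and 0.696 CPM in early spermatocytes. Figla, known as a transcription factor gene of oocytes, stood at 24.2, 24.4 and 21.9 CPM, like the 24.9, 15.4 and 22.8 CPM of spermatogonia and unlike the 2.78, 2.18 and 1.04 CPM of early spermatocytes. Nacad and Nudt17 were higher than in both neighbours. Ctcfl, the germline paralogue of the insulator gene Ctcf, was among the same 164 genes, at 48.3, 38.4 and 39.1 CPM against 2.26, 5.86 and 3.89 CPM and 4.30, 6.86 and 4.70 CPM, and was named after its values were seen. The lower genes were led by A830018L16Rik, 4930463O16Rik, Gm49794, Gm10505 and Zfpm2, of which Gm10505, a noncoding transcript, stood at 35.6, 40.3 and 65.1 CPM against 342, 317 and 366 CPM.

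Of the 3 germ cell classes compared, preleptotene-like cells had the largest share of X-linked RNA. The X chromosome is silenced in later male prophase and is active before it. X-linked genes gave 1.99% (exact 95% binomial interval 1.97 to 2.02), 1.91% (1.89 to 1.93) and 1.84% (1.83 to 1.86) of the UMIs. In somatic-like barcodes the shares were 2.83%, 2.30% and 2.66%. They were 1.37%, 1.28% and 1.26% in spermatogonia and 1.03%, 1.04% and 0.974% in early spermatocytes. Without the cells that carried late or somatic RNA, they were 2.09%, 2.03% and 1.97% against 1.72%, 1.71% and 1.69% in spermatogonia and 1.01%, 1.04% and 0.975% in early spermatocytes. The order of the classes was the same in each library and with either set of cells, and the gap to spermatogonia was smaller after the removal.

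**Figure D2:**
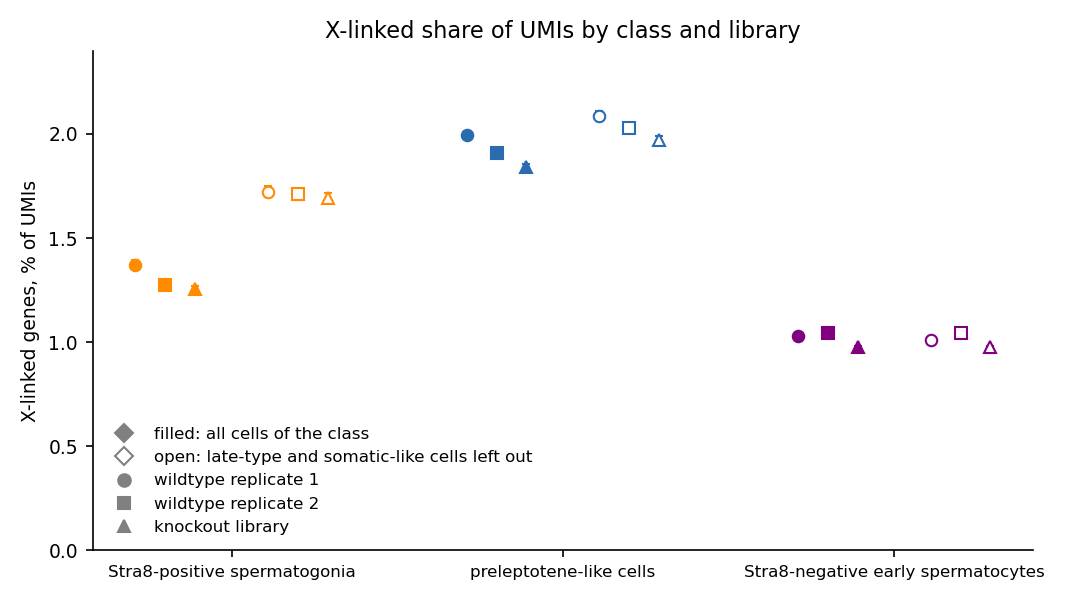
X-linked genes as a percentage of all UMIs of a class, with 1 symbol per library, exact 95% binomial intervals (mostly smaller than the symbols), filled symbols for all cells and open symbols for cells without late or somatic RNA. Preleptotene-like cells lie between 1.84% and 2.09%, above spermatogonia and early spermatocytes in both versions.

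The number of genes per cell hardly differed between the classes at equal depth. Thinned to 3000 UMIs, the median preleptotene-like cell showed 1783.5, 1796 and 1816 genes. Spermatogonia showed 1724, 1745 and 1737 genes and early spermatocytes 1769, 1775 and 1795 genes.

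The cells were not uniform when set in order by the balance of spermatogonial and meiotic rule genes. They were split by the share of spermatogonial UMIs among the 9 rule genes other than Stra8: above 0.25 (36, 52 and 40 cells), above 0 to 0.25 (129, 160 and 181) and 0 (45, 53 and 50). The meiotic rule genes enter that share. Higher levels of other meiotic genes at a smaller share therefore describe the split and test nothing. Zcwpw1, not itself a gene of the split, stood at 231, 224 and 214 CPM in cells with the largest share, at 694, 488 and 700 CPM in the middle and at 1121, 937 and 1179 CPM in cells with none. Dmc1 stood at 81.3, 52.8 and 57.1 CPM, then 252, 166 and 216 CPM, then 449, 364 and 428 CPM. Sycp3 stood at 414, 412 and 553 CPM, then 1880, 1421 and 1905 CPM, then 2277, 2209 and 2790 CPM. In each library the 3 bins came in the same order for these genes.

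Prdm9 (50.8, 51.1 and 31.6 CPM, then 163, 137 and 146 CPM, then 219, 194 and 250 CPM) and Tex101 (612, 439 and 469 CPM, then 1701, 1497 and 1565 CPM, then 2004, 1880 and 2139 CPM) followed the same order. Rad51ap2 stood at 5.08, 11.5 and 34.0 CPM, then 159, 103 and 181 CPM, then 269, 272 and 312 CPM. Ccnd2 was present in the bin with the largest share (30.5, 9.89 and 24.3 CPM) and at 0 or, in wildtype replicate 2, 0.804 CPM in the others. Rec8 did not follow, at 33.0, 39.6 and 31.6 CPM, then 38.9, 46.6 and 29.7 CPM, then 23.0, 14.1 and 2.69 CPM, with counting intervals that overlap between bins in the wildtype libraries. The bins also differed in depth, with medians of 11147, 9374 and 14661.5 UMIs in the bin with the largest share and 5396, 4949 and 7175.5 UMIs in the bin with none, and the part of depth in these orders was not tested.

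**Figure D3:**
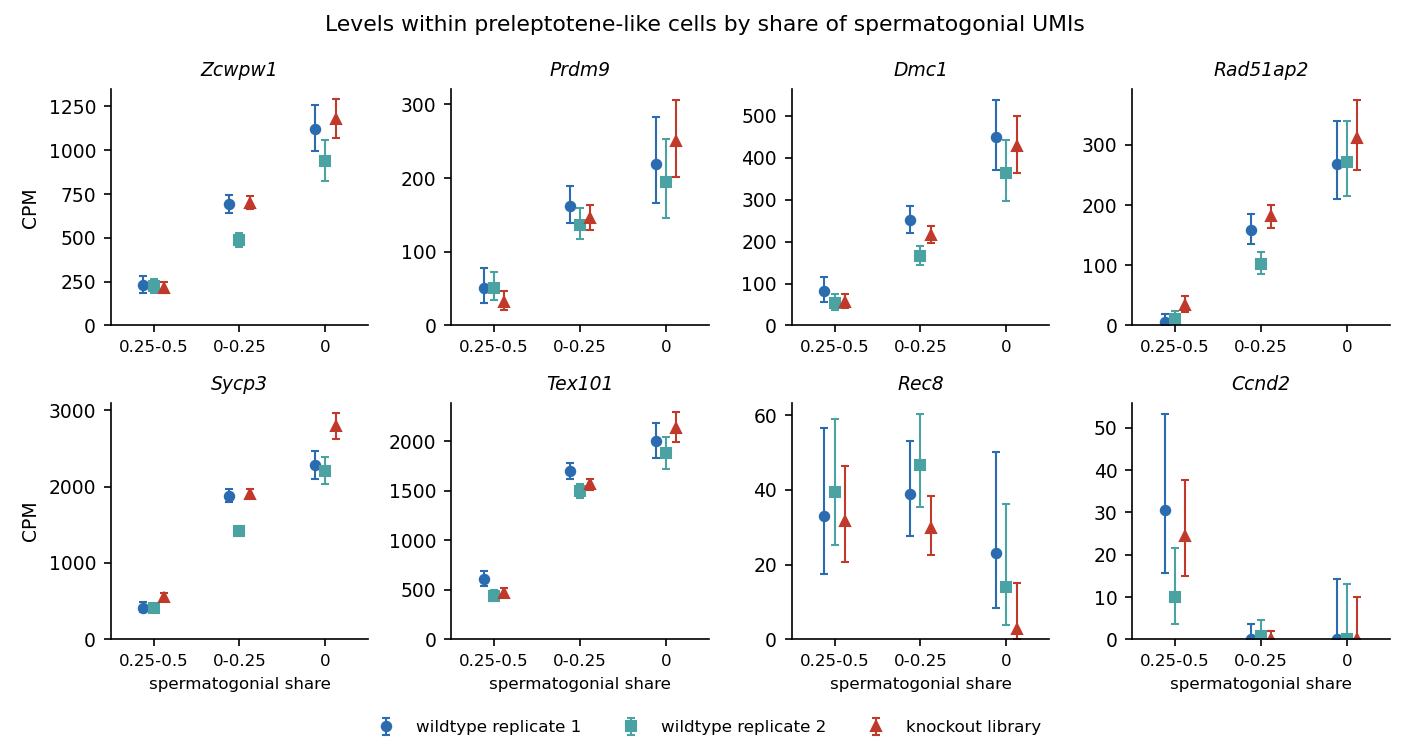
CPM of 8 genes in preleptotene-like cells split by the share of spermatogonial UMIs among the rule genes (largest share on the left, none on the right), with 1 symbol per library and exact 95% Poisson intervals. Zcwpw1, Prdm9, Dmc1, Rad51ap2, Sycp3 and Tex101 are higher towards the right in all 3 libraries, Ccnd2 is lower, and Rec8 is lowest in the bin with no spermatogonial UMI.

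A split by Stra8 itself gave another picture. Of the cells, 67, 79 and 74 held 1 UMI of Stra8, 54, 68 and 67 held 2 to 4, and 89, 118 and 130 held at least 5, at similar median depths (6374, 6120 and 8765 UMIs with 1 UMI of Stra8, and 6363, 6124 and 8502.5 UMIs with at least 5). Esco2 was higher with more Stra8, at 276, 310 and 244 CPM, then 511, 420 and 483 CPM, then 687, 568 and 537 CPM. Prdm9 stood at 71.8, 65.4 and 63.8 CPM, then 145, 125 and 150 CPM, then 210, 165 and 162 CPM. Gm4969 stood at 25.0, 16.7 and 16.9 CPM, then 65.8, 32.8 and 40.9 CPM, then 67.9, 64.8 and 58.6 CPM. The replication list, summed, stood at 3635, 3925 and 3653 CPM with 1 UMI and at 4813, 4910 and 4956 CPM with at least 5.

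Other genes ran against Stra8. Spo11 stood at 66.8, 74.4 and 69.8 CPM in cells with 1 UMI of Stra8, 57.9, 32.8 and 48.5 CPM with 2 to 4 and 19.2, 22.3 and 22.9 CPM with at least 5. Rad51ap2 stood at 169, 113 and 217 CPM with 1 UMI and at 97.4, 75.9 and 92.9 CPM with at least 5. Pachytene and diplotene genes summed to 5769, 6547 and 5648 CPM with 1 UMI of Stra8, 3504, 3708 and 4163 CPM with 2 to 4 and 4347, 4851 and 6259 CPM with at least 5, and their part in these orders was not tested.

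**Figure D4:**
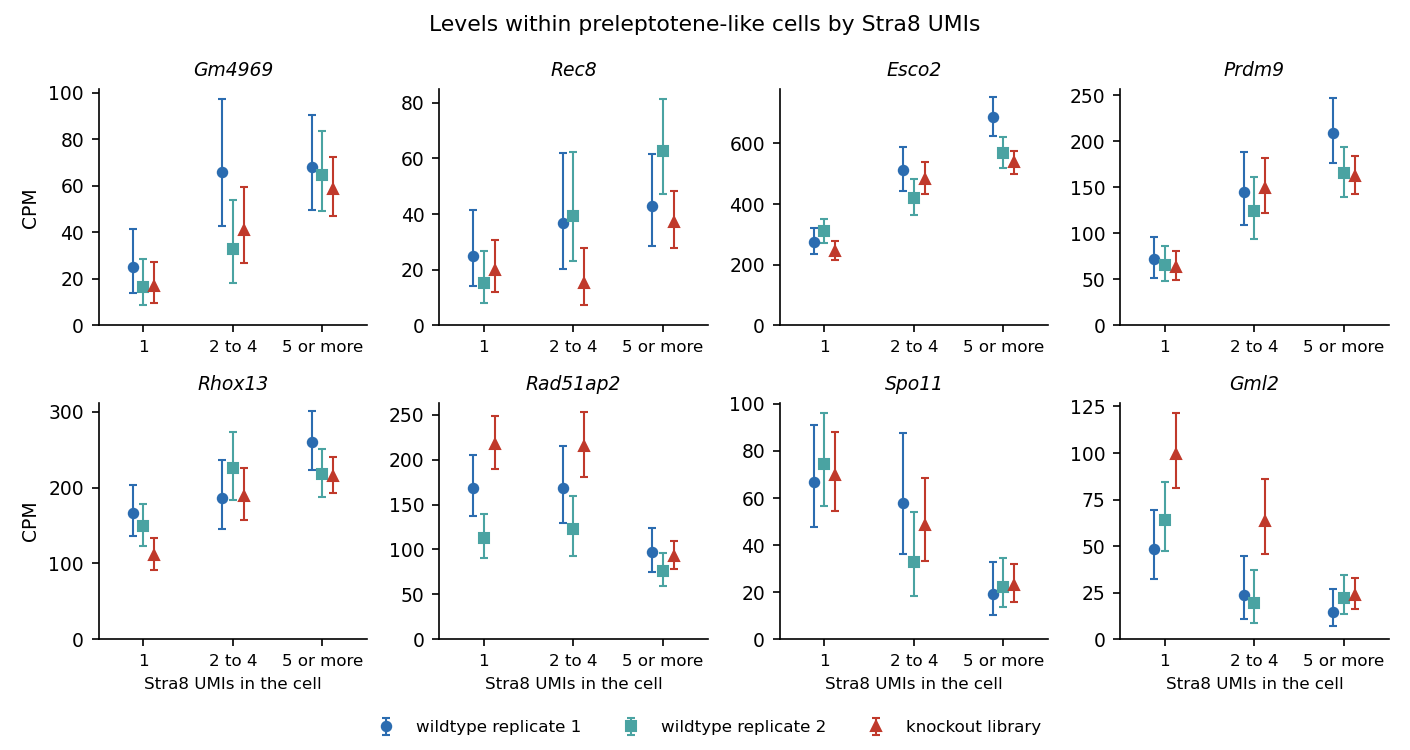
CPM of 8 genes in preleptotene-like cells with 1, 2 to 4 or at least 5 UMIs of Stra8, with 1 symbol per library and exact 95% Poisson intervals. Esco2 and Prdm9 are higher with more Stra8 and Spo11 is lower in all 3 libraries.

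The knockout comparison asked whether the RNA of these cells differed with the Tex10 label. Log2 ratios were taken after adding 1 CPM. To pass, a gene needed 20 CPM in 1 library and ratios of one sign and a size of 1 or more over either wildtype library, the smaller of them no less than 2 times as large as the wildtype replicates differed from each other. Of 7705 tested genes, 34 passed (0.441%), of which 20 were higher (0.26%) and 14 lower (0.182%) in the knockout library. With wildtype replicate 1 left out 74 passed and with wildtype replicate 2 left out 113, so the count rests on having 2 wildtype libraries. Among cells with at least 2 UMIs of Stra8, 88 passed, of which 24 were among the 34.

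Tex10 itself (chr4:48430858-48473459, minus strand) did not pass. It stood at 173 CPM (154 to 195), 121 CPM (107 to 137) and 143 CPM (130 to 157), with a wildtype mean of 147 ± 37.0 CPM (SD, n = 2). The knockout value lay between the wildtype values, at 97.4% of their mean. Counts at the 3′ end need not see the deletion of an exon, and the labels do not say which exons were deleted, so this value does not check the label. Of the 7 genes of the Tex10 complex, Wdr18, Pelp1, Las1l, Senp3, Mdn1 and Nol9 among them, 0 passed. With 0.441% of all tested genes passing, a list of 7 cannot be told apart from that share. Mdn1, a ribosome assembly ATPase gene and the one farthest above its wildtype values, stood at 134, 123 and 162 CPM.

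No gene of the entry, replication, mitosis, axis, break, recombination or genome defence lists passed in the knockout library, of 15, 33, 20, 19, 11, 25 and 17 tested. Over all tested genes 0.441% passed, so lists of this size would hold few calls or none. The absence of calls therefore tells little about these lists. Relative to the wildtype libraries the median log2 ratios were -0.03 and 0.27 for the axis list and -0.09 and 0.25 for the break list, against 0.03 and 0.02 over all genes. The medians thus differed in sign between the wildtype libraries. Gm4969, Prdm9 and Esco2 stood at 90.2%, 96.9% and 92.0% of the wildtype mean, and Zcwpw1 and Sycp3 at 112% and 117%. The knockout value lay between the wildtype values for Gm4969, Prdm9 and Zcwpw1, below both for Esco2 and above both for Sycp3.

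The 5 lower genes with the largest ratio were Rpl29, Gm8797, Luzp4, Hist1h2ap and Col16a1. Rpl29, a ribosomal protein gene of the large subunit (chr9:106429454-106431568, plus strand), stood at 842 CPM (799 to 888), 887 CPM (847 to 928) and 75.0 CPM (65.7 to 85.2). The wildtype libraries averaged 864 ± 31.3 CPM (SD, n = 2), of which 8.67% was found in the knockout library, with log2 ratios of -3.47 and -3.55. A UMI was found in 204 of 210, 258 of 265 and 124 of 271 cells. By the same rule Rpl29 also passed in spermatogonia (1091, 1039 and 104 CPM) and in early spermatocytes (912, 926 and 89.1 CPM). In somatic-like barcodes it stood at 833, 920 and 87.5 CPM.

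Gm8797, a ubiquitin-like copy gene, stood at 86.3, 118 and 9.53 CPM, with 93.0% of its 3′ sequence words of 31 bases shared with other genes such as Ubb. It also passed in spermatogonia (102, 147 and 13.1 CPM) and in early spermatocytes (126, 161 and 14.6 CPM). Hist1h2ap, a replication histone gene of which 93.4% of the words were shared with other H2A genes, stood at 93.6, 79.2 and 19.7 CPM. Of the words of Rpl29, 57.7% were shared with other genes such as Gm6344. Values of such genes are uncertain, because reads can be assigned to either copy or dropped. Luzp4, on the X chromosome, stood at 27.2, 30.9 and 4.13 CPM, and 80.2% of its words were shared with a group of X-linked genes that includes Gm15080. Col16a1, a collagen gene with no shared words, stood at 21.1, 25.3 and 6.35 CPM. It did not pass with a minimum of 6000 UMIs per cell.

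The 5 leading higher genes were P2rx4, Eif3j2, Prss45, Gm15080 and Gm4665. P2rx4, which encodes an ATP-gated ion channel (chr5:122707544-122729738, plus strand), stood at 2.42 CPM (0.658 to 6.18), 5.16 CPM (2.57 to 9.23) and 90.2 CPM (80.0 to 101). Of its 284 UMIs in the knockout library, 186 lay in 1 cell, and 18 of 271 cells held any. Without that cell the level was 31.4 CPM. P2rx4 did not pass in spermatogonia (24.9, 8.80 and 44.2 CPM) or in early spermatocytes (4.05, 2.81 and 2.78 CPM), and its knockout value here describes few cells.

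Each of the other 4 had UMIs in more knockout cells than P2rx4. Eif3j2, a copy of a translation initiation factor gene that shares 93.4% of its words with Eif3j1, stood at 1.81, 5.16 and 30.8 CPM, with UMIs in 71 of 271 knockout cells. Prss45, a testis serine protease gene, stood at 7.85, 8.91 and 41.9 CPM, with UMIs in 54 knockout cells. Of its knockout UMIs, 26 lay in 1 cell. Without the cells that carried late or somatic RNA, Prss45 stood at 4.93, 5.63 and 20.8 CPM and still passed. Gm15080, all of whose words were shared with X-linked copies, stood at 4.23, 2.81 and 20.96 CPM. Gm4665, annotated as antisense and uncertain because the use of strand in counting is not stated, stood at 4.23, 6.56 and 25.7 CPM. With 6000 UMIs as the minimum, Eif3j2 and Gm4665 kept log2 ratios of 2.34 and 1.92 but did not pass.

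**Figure D5:**
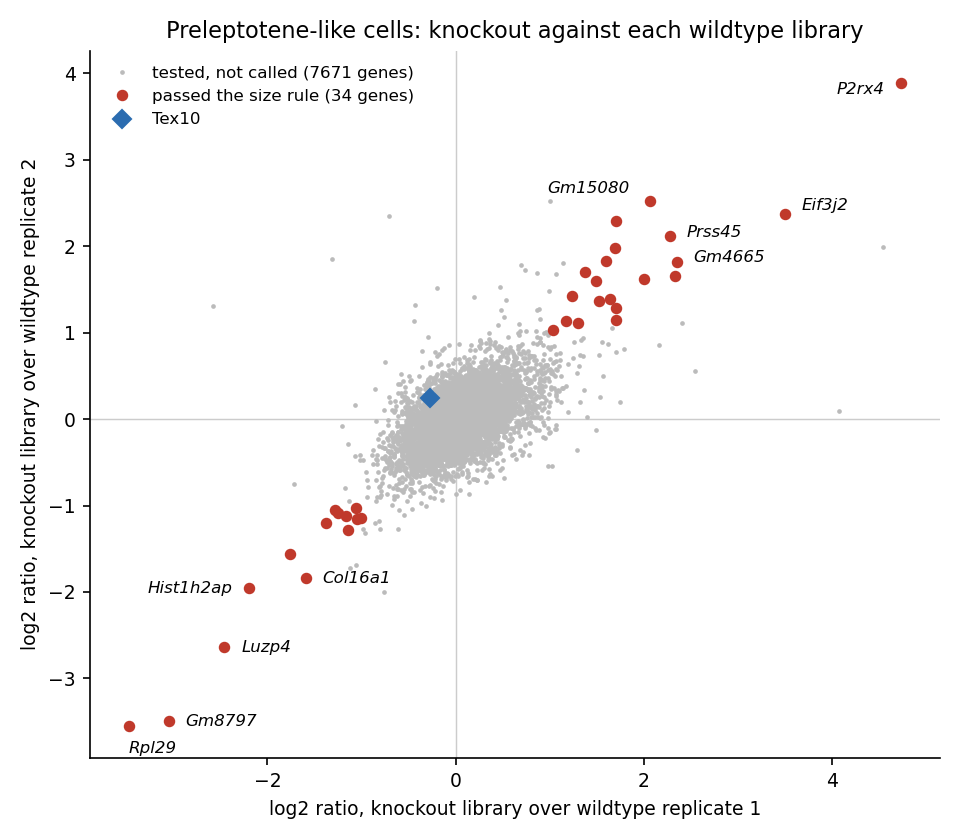
Log2 ratios with 1 CPM added of the knockout library over wildtype replicate 1 (horizontal axis) and over wildtype replicate 2 (vertical axis) in preleptotene-like cells, for the 7705 tested genes, with the 34 that passed the size rule in red. Rpl29 and Gm8797 lie lowest, P2rx4 highest, and Tex10 (diamond) lies near 0 with opposite signs on the axes.

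By chromosome, 6 of the 34 called genes lay on chromosome 4, which also carries Tex10, with Stmn1, Jun and Col16a1 among them. Another 5 lay on chromosome 9, with Rpl29, Prss45 and Gm4665 among them. The number of tested genes on each chromosome is not given, so these counts cannot show whether a chromosome held more calls than its share. The part of linked genotype in these calls was not tested. The remaining called genes fell into several kinds. Stmn1, which encodes the microtubule regulator stathmin, stood at 335, 294 and 790 CPM, and Il11, a cytokine gene, at 37.4, 31.9 and 116 CPM. Both also passed in spermatogonia, where Stmn1 stood at 675, 525 and 1468 CPM and Il11 at 165, 135 and 367 CPM. Of the lower genes, Rpa3 encodes a subunit of the single-strand DNA-binding complex of replication and repair and stood at 102, 91.0 and 42.2 CPM.

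Some of the higher genes are known from somatic or later cells, and levels in somatic-like barcodes and of the Sertoli list are given beside them. Sparc, a matrix protein gene, stood at 26.6, 36.1 and 89.3 CPM here but at 1750, 1628 and 2063 CPM in somatic-like barcodes, and 122 of its knockout UMIs lay in 1 cell (51.0 CPM without it). Amhr2, a Sertoli cell receptor gene, stood at 27.8, 28.6 and 63.8 CPM here and at 485, 328 and 778 CPM in somatic-like barcodes. Because Amhr2 is among the genes that define somatic-like barcodes, its high level there follows from that choice. Jun stood at 6.64, 11.3 and 37.5 CPM, with 46 knockout UMIs in 1 cell, and Pou5f2, a late spermatocyte gene, at 5.43, 3.28 and 20.01 CPM, with 32 in 1 cell. All 10 genes of the Sertoli list had UMIs, and their sum was 637, 574 and 926 CPM in all cells and 361, 427 and 426 CPM without cells that carried late or somatic RNA. Clu, a Sertoli gene, stood at 124, 125 and 232 CPM.

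Without those cells 36 genes passed, of which 22 were among the 34. Sparc, Amhr2, Jun and Pou5f2 no longer passed, nor did Cited2, Gm3880, Gm10827, Gm20621, Gpr62, Fbxl13, 1700041C23Rik and Edem1. Gm10827, Fbxl13 and Edem1 had smaller log2 ratios of 1.26, -1.08 and -0.93 then, against 1.15, -1.06 and -1.01 with all cells, so their size hardly moved. Amhr2 and Pou5f2 belong to the genes that chose the cells removed. Among the genes of the lists, Catsper4, a sperm channel gene, was the 1 that passed then, as lower. Histone genes outside the lists went both ways then. Hist1h1e (142, 102 and 303 CPM), Hist1h2bn (9.87, 6.75 and 22.0 CPM) and Hist1h2bj (19.7, 18.0 and 40.7 CPM) passed as higher, and Hist1h2ap as lower. The 10 leading genes all passed in both versions.

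The neighbouring classes of the same 3 libraries gave their own counts by the same rule. In spermatogonia 237 genes passed, 58 higher and 179 lower, and in early spermatocytes 13 passed, 4 higher and 9 lower. The numbers tested in these classes are not given, so no share stands beside these counts and they do not rank the classes. Cells with late or somatic RNA held 31.1%, 35.5% and 38.1% of the spermatogonial UMIs, and counts without them are not given. The spermatogonial sums rest on 65, 77 and 83 barcodes, and 1 barcode held 188293 of the 1326127 UMIs in wildtype replicate 1. Of the 34 genes called in preleptotene-like cells, 17 passed the same way in spermatogonia and 7 in early spermatocytes. None passed the opposite way. Eif3j2 stood at 0.754, 1.47 and 35.0 CPM in spermatogonia and 2.53, 0.936 and 34.5 CPM in early spermatocytes. Prss45 stood at 17.3, 20.5 and 88.5 CPM in spermatogonia and 22.8, 25.6 and 60.2 CPM in early spermatocytes. Both passed there too. In all, 6 genes passed in all 3 classes, with Rpl29, Gm8797 and Hist1h2ap also among them. The knockout values of these genes do not set preleptotene-like cells apart.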

How the data were processed

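UMI counts per gene and barcode were used as deposited for 3 single-cell libraries. The authors' counts were made with Cell Ranger 4.0.0 on mm10, and Seurat 4.0.5 is also named, per the submitters' processing notes; the strand setting is not given in the sources used here. The cells and the gene lists were chosen with earlier results of these data known. UMIs were summed per class and library and scaled to CPM (Python 3.11.15, numpy 2.4.6, scipy 1.17.1, pandas 2.3.3). With 1 knockout library, genes were called by size rules on log2(CPM + 1). The rules were run on simulated data that held counting noise only. The wildtype libraries differed by more than that (chi-square of 2.48 per degree of freedom), so the simulation gives no rate of false calls in these data. The wildtype libraries come from 1 mouse each, and Poisson and binomial intervals cover counting error only.

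Named were the leading 5 higher and 5 lower genes of the knockout comparison, the leading 10 higher and 5 lower genes of each stage comparison, the markers, rule genes and Tex10 complex, and the most abundant members of the lists. Abundant members of the spermatid, somatic and some other lists are given by counts, and other genes were named after their values were seen. Lists overlap: Hormad1, Rec8, Sall4, Sohlh1, Sohlh2, Stra8, Rara, Rarg, Crabp1, Nanos2 and Nanos3 are in 2 lists each. Against spermatogonia, 0 of 14 round spermatid, 0 of 6 Sertoli, 0 of 4 Leydig and 0 of 1 macrophage and endothelial genes passed, and Mylk was the 1 myoid gene tested and passed as higher. Doublets were not removed: Scrublet (scanpy 1.11.5) marked 0, 1 and 0 of 8134, 8337 and 12014 barcodes by its own threshold, which did not work, and leaving out the top 8% of scores was an alternative. Gene coordinates are GENCODE M21 (GRCm38), with 32235 of 32285 genes matched; promoters are RefSeq's. Shared 3′ sequence was counted as words of 31 bases in the last 500 transcript bases. Figures were drawn with matplotlib 3.10.9. Results for 2 genes that passed a rule are not reported here.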

Additional observations from a re-analysis of the deposited data

Results flagged for a closer look

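Sparc, a matrix protein gene, had knockout ratios of opposite sign in neighbouring classes. In preleptotene-like cells it stood at 26.6 and 36.1 CPM in the wildtype libraries and 89.3 CPM in the knockout, a smaller log2 ratio of 1.28. In Stra8-negative early spermatocytes it stood at 87.3 and 72.1 CPM and at 56.6 CPM, a smaller log2 ratio of -0.34. The difference between the classes was not tested. Of the knockout UMIs in preleptotene-like cells, 122 lay in 1 cell. Without the cells that carried late or somatic RNA, preleptotene-like cells held 18.3, 23.6 and 15.1 CPM, a smaller log2 ratio of -0.27, which has the sign of the early spermatocytes.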

How the results depend on the processing

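The knockout comparison rests on 1 library pooled from 2 mice, and the stage comparisons on classes cut from the same counts. No paired analysis was possible because the groups share fewer than 2 replicate numbers. Removing late-type and somatic-like cells was chosen after seeing the data. The 34 knockout calls became 374 with no minimum CPM, 149 at a 1.5-fold minimum and 88 with at least 2 UMIs of Stra8. Leaving out 1 wildtype library gave 74 to 113. The other settings gave 28 (5 CPM added, and a minimum of 6000 UMIs), 36 (median-of-ratios scaling), 38 (mean per cell), 34 (at least 4 meiotic UMIs), 43 (without top Scrublet scores) and 36 (late-type and somatic-like cells removed). The 1347 genes called against spermatogonia became 2029 with no minimum and 3011 at 1.5-fold, and 1468 to 1639 with 1 library left out. The 712 called against early spermatocytes became 2015 at 1.5-fold, and 826 to 849 with 1 library left out. The share difference of 0.131 percentage points became 0.295 of germ barcodes, 5.29 at 6000 UMIs, 0.457 with at least 2 UMIs of Stra8, 0.0355 without top Scrublet scores, -0.171 without late-type and somatic-like cells, -0.468 thinned, and 0.124 to 0.138 with 1 wildtype library left out. The cause of these shifts was not tested beyond what each setting changes. Of the 10 leading knockout genes, Eif3j2 (2.34), Gm4665 (1.92) and Col16a1 (-0.94) did not pass at 6000 UMIs.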
